A study of Homo sapiens with 4 samples.

Results

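The amyloid precursor protein gene APP, its relatives APLP1 and APLP2, and genes for the enzymes that cut their products were followed in a breast cancer line of human origin, MDA-231, transfected with a TARBP2 plasmid. The 9 genes were chosen by name out of 16891 with a named probe, because the study's published work names APP as a target of TARBP2. TARBP2 binds double-stranded RNA and is a partner of DICER1. They were represented by 18 of the 47323 probes on the array, and 16 of these probes, with at least 1 for every gene, were detected and tested. The other 2, for APLP1 and BACE1, were not above background on any array.

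The study compared 2 arrays of cells given pCMV-TARBP2 with 2 arrays of cells given pCMV-GFP, all from total RNA taken 48 hours after transient transfection. In each plasmid the CMV promoter drives the insert, and nothing else in the labels separates the groups. The design text calls the control mock transfection, and the sample labels, which name the GFP plasmid, were followed. Whether the 2 arrays of a group stem from different cultures is not stated, and the p-values reflect array-to-array spread that may be only technical. RNA came from whole cultures, in which fewer expressing cells and less RNA per cell cannot be told apart.

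APP is a single-pass membrane protein that is cut in steps. An alpha-secretase, chiefly ADAM10, releases its ectodomain, or the beta-secretase BACE1 cuts nearer the amino end of the amyloid beta stretch, and the gamma-secretase complex then cuts the remaining stub inside the membrane. That complex holds a presenilin, such as PSEN2, as its catalytic subunit together with nicastrin (NCSTN), an APH1 protein and PSENEN. APLP1 and APLP2 are processed by the same enzymes but lack the amyloid beta sequence, and the same secretases also cut Notch receptors, cadherins and other surface proteins.

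Levels are given as log2 of background-corrected, quantile-normalised intensity. A difference is the mean of the TARBP2 arrays minus the mean of the GFP arrays, with the standard error (SE) of a limma fit over all 22123 detected probes. A probe is said to have risen or fallen at a Benjamini-Hochberg adjusted p under 0.05 over all of these probes. By this rule 8916 probes (40.3%) were called, 20.5% higher and 19.8% lower on the TARBP2 arrays, so a call was common. The groups did not overlap at 71.7% of detected probes.

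Median raw intensity ran from 74.5 to 78.7 over the 4 arrays, and the share of probes detected from 44.1% to 45.9%. The TARBP2 probe ILMN_2310253 stood at log2 levels of 15.11 and 15.12 with the TARBP2 plasmid against 7.26 and 6.97 with GFP, as the arrays are labelled. A dimmer TARBP2 probe, ILMN_1729767, differed by -0.22 ± 0.08 (SE, adjusted p = 0.0723, limma). Of 7 markers set for this mesenchymal-like line, 6 were detected, among them VIM and CD44, and SPARC was not above background on any array. ESR1 and PGR, the hormone receptors of luminal cells, and the leukocyte marker PTPRC were not above background on any array. Other markers of those cell types were detected at their brightest probe, with KRT19, ERBB2 and the monocyte receptor CD14 above background on all 4 arrays and FOXA1 on both GFP arrays.

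Of the 16 tested probes of the 9 genes, 7 rose, 2 fell and 7 did not pass, so that 56.2% were called, against 40.3% of all detected probes. The groups did not overlap at 15 of the 16 probes (93.8%), against 71.7% of all detected probes. The 16 probes are named and were detected on all 4 arrays. The shares of all detected probes include unnamed probes and ones detected on fewer arrays, so these are unlike sets. Counted once per gene, by the detected probe of highest mean level, 3 genes rose (APP, ADAM10 and APH1A), 1 fell (PSEN2) and 5 did not pass (APLP1, APLP2, BACE1, BACE2 and NCSTN). That is 44.4% of the genes, against 48.8% of the 10442 genes with a named, detected probe, of which 25.1% rose and 23.8% fell. Without 1 array at a time fewer of these genes and probes were called, and fewer of all detected probes were called too. The share of the 9 genes that changed was close to that of all named genes. Their median log2 difference was 0.14, and that of all named genes was 0.00 after rounding. 

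Promoter sequences are printed for the 4 genes at which every detected probe was called in the same direction, 3 higher and 1 lower. Each is the 250 bases before an annotated gene start in RefSeq's GRCh38.p14, 5′ to 3′ on the gene's strand, and APP has 2 annotated starts. Capitals mark GGGCGG (a GC box), CCAAT or TATAAA on either strand, the last 2 being the CCAAT and TATA boxes.
APP (GC-rich start), chr21:26170771-26171020, minus strand: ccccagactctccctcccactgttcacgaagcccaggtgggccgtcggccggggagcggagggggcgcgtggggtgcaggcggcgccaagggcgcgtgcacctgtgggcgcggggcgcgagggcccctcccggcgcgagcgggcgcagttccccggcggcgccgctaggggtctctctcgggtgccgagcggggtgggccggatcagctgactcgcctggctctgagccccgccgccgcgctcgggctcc
APP (other start), chr21:26171129-26171378, minus strand: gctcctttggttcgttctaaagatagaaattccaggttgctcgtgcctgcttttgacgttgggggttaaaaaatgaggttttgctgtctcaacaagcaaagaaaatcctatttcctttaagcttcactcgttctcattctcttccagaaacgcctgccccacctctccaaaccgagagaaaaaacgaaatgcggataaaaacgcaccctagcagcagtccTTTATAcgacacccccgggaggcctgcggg
ADAM10, chr15:58749708-58749957, minus strand: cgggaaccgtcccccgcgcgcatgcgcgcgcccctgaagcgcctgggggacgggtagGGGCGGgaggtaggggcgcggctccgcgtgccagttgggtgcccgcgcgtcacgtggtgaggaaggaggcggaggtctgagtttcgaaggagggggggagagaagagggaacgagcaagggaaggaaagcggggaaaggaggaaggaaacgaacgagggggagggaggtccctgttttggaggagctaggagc
APH1A, chr1:150269017-150269266, minus strand: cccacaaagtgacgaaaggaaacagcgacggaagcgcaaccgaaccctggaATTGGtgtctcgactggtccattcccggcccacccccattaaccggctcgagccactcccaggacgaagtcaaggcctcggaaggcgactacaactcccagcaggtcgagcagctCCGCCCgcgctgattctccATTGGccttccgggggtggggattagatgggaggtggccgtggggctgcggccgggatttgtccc
PSEN2, chr1:226870366-226870615, plus strand: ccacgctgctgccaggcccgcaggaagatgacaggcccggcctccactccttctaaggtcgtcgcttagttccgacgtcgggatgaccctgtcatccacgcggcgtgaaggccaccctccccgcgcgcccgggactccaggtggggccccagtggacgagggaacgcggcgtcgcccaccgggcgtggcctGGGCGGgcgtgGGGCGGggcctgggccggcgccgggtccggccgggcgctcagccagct

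Of 35116 annotated promoters of this length, 42.6% held GGGCGG, 32% CCAAT and 10.7% TATAAA on at least 1 strand, and the median GC content was 58.0%. The GC-rich APP start held none of the 3 motifs, with a GC content of 78.8% and 34 CpG pairs. The other APP start had a GC content of 47.6%, 12 CpG pairs and 1 TATAAA match. ADAM10 held 1 GGGCGG (68.4% GC), PSEN2 held 2 (75.2% GC), and APH1A held 1 GGGCGG and 2 CCAAT (63.2% GC). The rising genes thus shared no 1 of these motifs, and the falling gene held one that 2 of the rising genes held too. A match in these letters is a description of the window and not a binding site.

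APP was higher on both TARBP2 arrays at all 3 of its probes. The brightest, ILMN_2404065, stood at log2 levels of 10.05 and 10.08 with TARBP2, against 9.06 and 9.09 with GFP. The arrays of a group differed by 0.03 while the groups lay about a doubling apart, and they did not overlap. At this probe APP rose by 0.99 ± 0.07 (SE, n = 2 in each group, adjusted p = 0.00135, limma), which is 1.99-fold. At the second probe, ILMN_2404063, the levels were 9.30 and 9.22 with TARBP2 and 8.39 and 8.31 with GFP, a rise of 0.91 ± 0.08 (SE, adjusted p = 0.00209, limma).

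The third APP probe, ILMN_1653283, was much dimmer, with raw intensities of 195.6 and 188.1 with TARBP2 against 146.5 and 146.4 with GFP. Its log2 levels of 7.21 and 7.13 against 6.61 and 6.57 gave a rise of 0.58 ± 0.08 (SE, adjusted p = 0.00622, limma). All 3 probes thus moved the same way without overlap, by amounts from 0.58 to 0.99. This probe was tied to the transcript accession NM_000484, and the 2 brighter probes to NM_201414, and which isoforms each probe reads was not analysed here. With the median of its chromosomal neighbours removed, the dim probe's difference was 0.35 (adjusted p = 0.0131, limma). The 3 rises kept their call in every alternative processing in which the probe was tested, with log2 differences from 0.35 to 1.01.

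The study's published work describes APP as a transcript that TARBP2 binds and destabilises. The level measured here was higher with the TARBP2 plasmid, opposite in direction to a loss of the transcript. The arrays read the level of the transcript only. Its decay and its binding by TARBP2 were not measured, so destabilisation was not tested. In the authors' deposited table the 2 APP accessions have log ratios of 0.25 and 0.76 and the class background, that table having no class for higher transcripts. In the authors' deposited table the class down-regulated was given to 8.44% of all accessions.

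**Figure D1:**
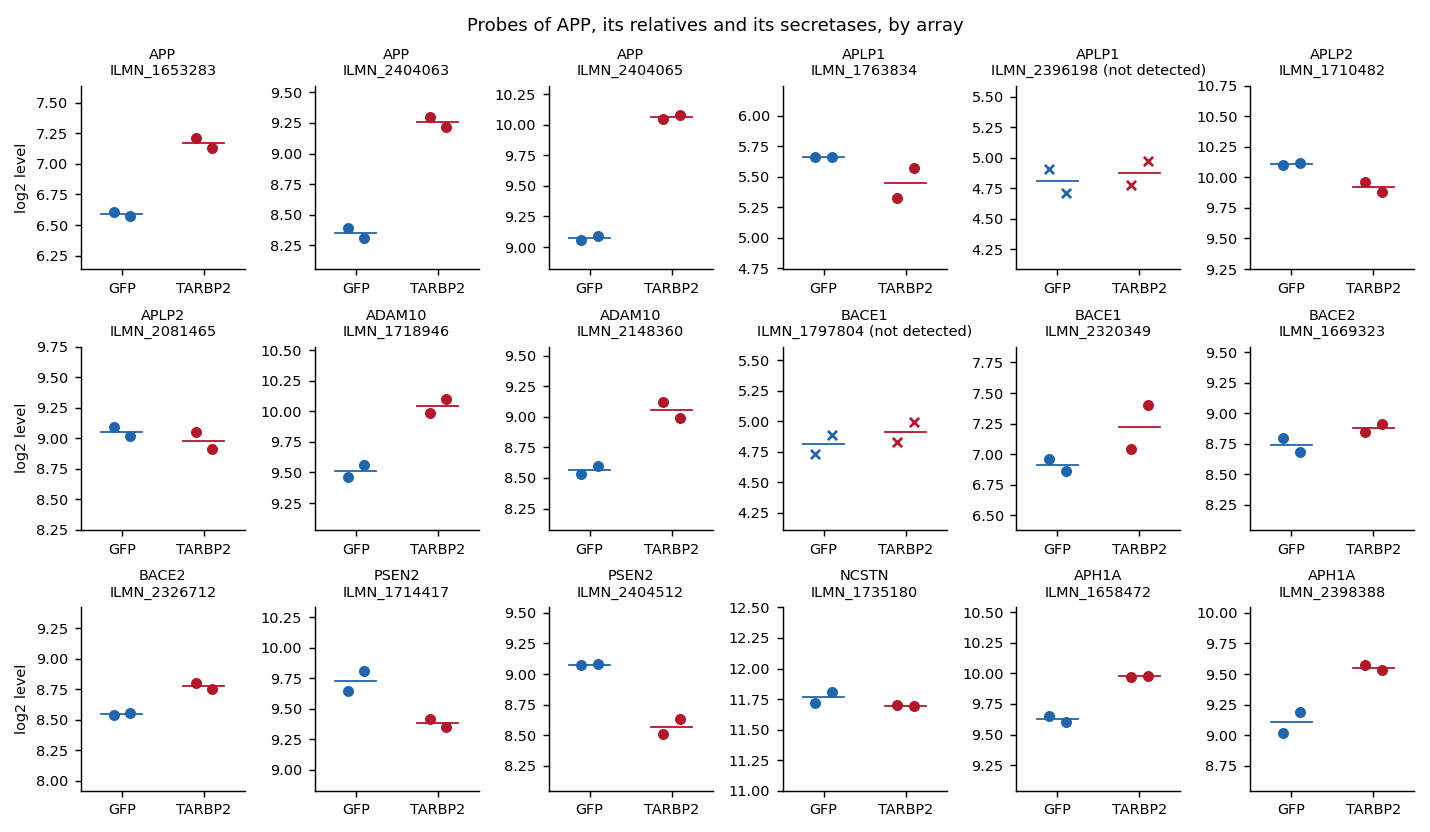
Log2 level (vertical axis, each panel spanning the same range of 1.5 units) of the 18 probes on the 2 GFP arrays (blue) and the 2 TARBP2 arrays (red), with a line at each group mean and crosses for the 2 probes not detected on any array. The 3 APP probes, the ADAM10 probes and the APH1A probes lie higher on the TARBP2 arrays, and both PSEN2 probes lie lower.

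The APP relatives did not pass the test in either direction. APLP2, which is expressed in most tissues, had log2 levels of 9.96 and 9.88 with TARBP2 and 10.10 and 10.12 with GFP at ILMN_1710482. The difference was -0.19 ± 0.08 (SE, adjusted p = 0.119, limma), with a 95% interval from -0.39 to 0.02. At its other probe, ILMN_2081465, the groups overlapped, with 9.05 and 8.91 against 9.09 and 9.02 and an interval from -0.31 to 0.15. Both intervals lie below the differences of the 2 brighter APP probes and do not reach a doubling in either direction.

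APLP1, the mostly neuronal relative, was near background. Its detected probe, ILMN_1763834, had raw intensities of 87.9 and 95 with TARBP2 and 100.3 and 101.3 with GFP, barely above the array medians. The log2 difference was -0.21 ± 0.10 (SE, adjusted p = 0.172, limma), with an interval from -0.48 to 0.06. It was -0.094 without TARBP2 replicate 1, -0.33 without TARBP2 replicate 2 and -0.10 without background correction. A change within the interval from -0.48 to 0.06 remains possible, and the smallest detectable change was not computed. Its other probe, at raw intensities from 70.8 to 78.4, was not above background on any array, and no fold is given.

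ADAM10, the main alpha-secretase of APP, was higher at both of its probes. ILMN_1718946 stood at 9.99 and 10.10 with TARBP2 and 9.46 and 9.56 with GFP, a rise of 0.54 ± 0.09 (SE, adjusted p = 0.00995, limma) or 1.45-fold. ILMN_2148360 stood at 9.12 and 8.99 against 8.53 and 8.60, a rise of 0.49 ± 0.09 (SE, adjusted p = 0.0128, limma). The groups did not overlap at either probe. The call at ILMN_1718946 was lost without the TARBP2 replicate 2 (0.48, adjusted p = 0.058, limma). At ILMN_2148360 it was lost without GFP replicate 1 (0.45, adjusted p = 0.0594, limma) and without TARBP2 replicate 1 (0.42, adjusted p = 0.0657, limma).

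The beta-secretases did not pass. BACE1, the enzyme that starts the amyloid beta pathway, had log2 levels of 7.04 and 7.40 with TARBP2 and 6.96 and 6.86 with GFP at ILMN_2320349. The TARBP2 arrays lay above the GFP arrays but 0.36 apart from each other, and the difference of 0.31 ± 0.14 had an adjusted p of 0.143 (SE, limma). Its 95% interval ran from -0.05 to 0.67, so a rise of the size of ADAM10's lies within it. The difference was 0.49 without TARBP2 replicate 1 (adjusted p = 0.0553, limma) and 0.13 without TARBP2 replicate 2 (adjusted p = 0.397, limma). Its other probe had raw intensities from 72.1 to 77.9 and was not above background on any array.

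BACE2, a relative of BACE1 that cuts APP within the amyloid beta stretch, was measured by 2 probes. ILMN_1669323 stood at 8.85 and 8.91 with TARBP2 and 8.80 and 8.68 with GFP, a difference of 0.14 ± 0.08 (SE, adjusted p = 0.247, limma). ILMN_2326712 stood at 8.80 and 8.75 against 8.54 and 8.56, a difference of 0.22 ± 0.07 (SE, adjusted p = 0.0684, limma). The groups did not overlap at either probe, and the 95% intervals reached 0.36 and 0.42. ILMN_2326712 passed under 4 other settings, with adjusted p-values from 0.0449 to 0.0492 (limma).

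Of the gamma-secretase subunits, PSEN2, a catalytic presenilin, was lower on the TARBP2 arrays at both probes. ILMN_2404512 stood at 8.51 and 8.63 with TARBP2 and 9.07 and 9.08 with GFP, a log2 difference of -0.50 ± 0.08 (SE, adjusted p = 0.0101, limma), or 1.42-fold lower. ILMN_1714417 stood at 9.42 and 9.35 against 9.65 and 9.81, a log2 difference of -0.35 ± 0.09 (SE, adjusted p = 0.0394, limma). The groups did not overlap at either. ILMN_1714417 lost its call without any 1 of the 4 arrays, with adjusted p-values from 0.0553 to 0.153 (limma). It also lost it with the replicate block (0.0654), with no detection filter (0.068) and with the neighbours' median removed (0.0533), so that 7 of 14 other settings kept the call. ILMN_2404512 lost it only without TARBP2 replicate 1 (-0.44, adjusted p = 0.0544, limma). In the authors' deposited table both PSEN2 accessions, at log ratios of -0.28 and -0.38, are classed as down-regulated, the only members so classed.

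APH1A, a scaffold subunit of the complex, was higher at both probes. ILMN_1658472 stood at 9.97 and 9.98 with TARBP2 and 9.65 and 9.60 with GFP, a rise of 0.35 ± 0.07 (SE, adjusted p = 0.0198, limma). ILMN_2398388 stood at 9.57 and 9.53 against 9.02 and 9.19, a rise of 0.44 ± 0.09 (SE, adjusted p = 0.0178, limma). The groups did not overlap at either probe. The call at ILMN_1658472 was lost without any 1 of the 4 arrays (0.33 to 0.37, adjusted p from 0.0679 to 0.0886, limma). At ILMN_2398388 it was lost without GFP replicate 1 or either TARBP2 replicate (0.36 to 0.46, adjusted p from 0.0733 to 0.0887, limma).

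NCSTN, the subunit that receives the substrate, did not pass. Its probe ILMN_1735180 stood at 11.70 and 11.69 with TARBP2 and 11.72 and 11.81 with GFP, a difference of -0.07 ± 0.08 (SE, adjusted p = 0.503, limma). The interval from -0.27 to 0.13 does not contain the fitted differences of PSEN2 or APH1A. It overlaps the interval of the PSEN2 probe ILMN_1714417, from -0.59 to -0.10. Subunits of the same complex were measured higher (APH1A), lower (PSEN2) and without a call (NCSTN), and differences between subunits were not tested.

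**Figure D2:**
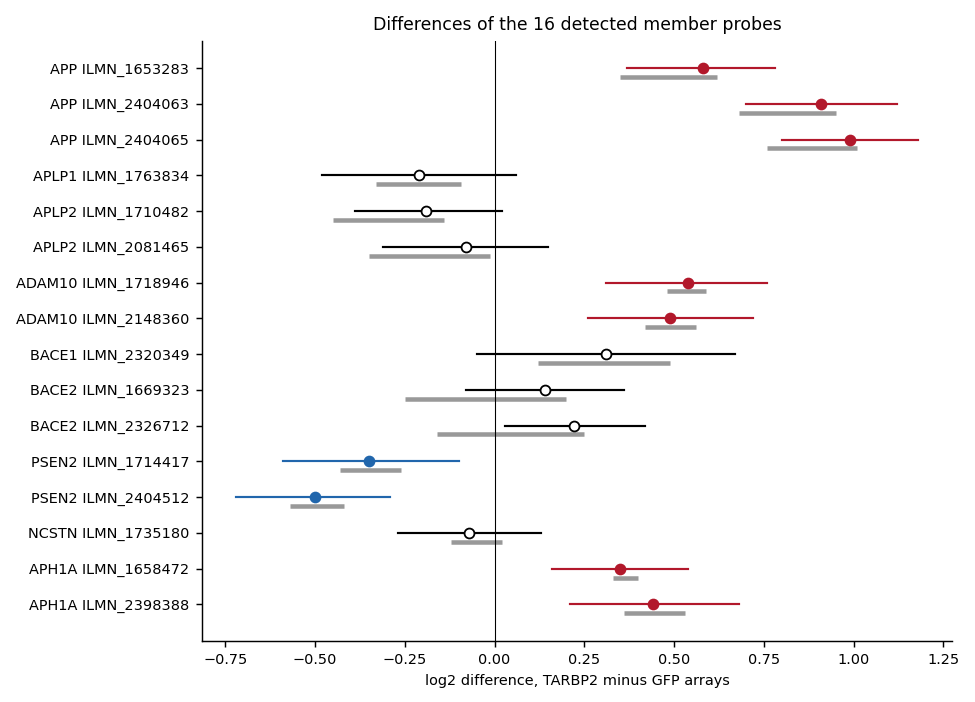
Log2 difference, TARBP2 minus GFP arrays (horizontal axis), of the 16 detected probes, with points for the fitted value, thin lines for its 95% interval and grey bars for the range over the alternative processings. Filled red points rose, filled blue points fell and open points did not pass, and the grey bars of both BACE2 probes and of NCSTN cross 0.

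Of the 1968 named genes with at least 2 detected probes, 37.3% had all of them called in the same direction. Among the members, 4 of the 6 genes with at least 2 detected probes did so (APP, ADAM10, PSEN2 and APH1A). The naming of probes bears on this count. Probes were tied to genes through the authors' log ratios, and 8 of the 18 member probes, including every probe of APLP2, ADAM10 and APH1A, were named as the 2 probes of a shared accession. Such pairs are told apart best at large log ratios, and 65.8% of all detected probes named in this way were called, against 44.4% of those tied to an accession of their own. Of the member probes tested, 6 of 8 pair-named ones and 3 of 8 others were called. For the pair-named genes the authors' deposited table gives log ratios under the accession itself, at 0.42 for ADAM10, 0.33 for APH1A, -0.11 for APLP2 and 0.76 for the brighter APP accession.

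Several members lie in stretches of the genome whose other genes were shifted too. The median log2 difference of the 50 named, detected genes nearest APP on chromosome 21 was 0.23, and around BACE2, on the same chromosome, it was 0.39. Over all 103 genes of chromosome 21 it was 0.19. Around APLP2 and BACE1 on chromosome 11 it was 0.27 and 0.19, and around ADAM10, APLP1, PSEN2, NCSTN and APH1A it lay between -0.09 and 0.01. Over all 10433 such windows the central 90 percent of medians ran from -0.24 to 0.38.

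The refit with these medians removed covered only named, detected probes with such a window. Its adjusted p-values are over that smaller set, and the medians were subtracted as if without error. These adjusted p-values are therefore not on the scale of the main fit. In this refit APP still rose (0.76, adjusted p = 0.000876, limma), as did ADAM10 (0.53, adjusted p = 0.00478) and APH1A (0.40, adjusted p = 0.00657). APLP2, which did not pass in the main fit, was lower than its neighbours at both probes, by 0.45 and 0.35 on the log2 scale (adjusted p = 0.00522 and 0.0189 in this refit, limma). These probes were named as a pair where 0.17 pairs were expected from probe density, the highest such value among the members. BACE2 changed sign, to -0.25 (adjusted p = 0.0491) and -0.16 (adjusted p = 0.104, limma) at its probes. The brighter PSEN2 probe no longer passed (-0.26, adjusted p = 0.0533, limma). The part of the neighbours' shift in these results was not tested further.

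**Figure D3:**
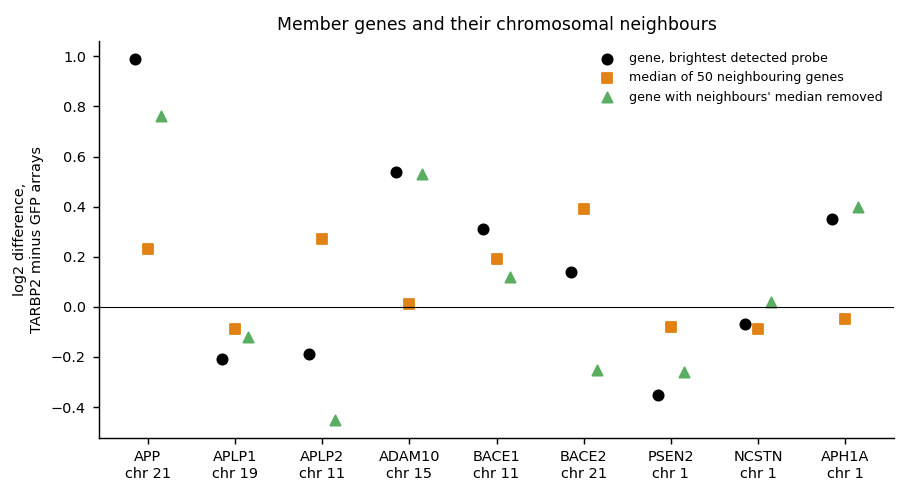
Log2 difference, TARBP2 minus GFP arrays (vertical axis), of each member by its brightest detected probe (black circles), of the median of its 50 neighbouring genes (orange squares) and of the member with that median removed (green triangles). APP, ADAM10 and APH1A stay above 0 with the median removed, while BACE2 changes sign and APLP2 moves further below 0.

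Other genes of the pathway were counted in 5 lists by their brightest detected probe, and 90 of their 101 genes had a named probe. Each list's counts stand beside the 48.8% of all named genes that were called, 25.1% higher and 23.8% lower. Of the remaining secretases and gamma-secretase subunits, 6 of 10 were tested, 2 rose and 3 fell, with a median of 0.04. PSENEN, the small subunit that activates presenilin, fell by 0.79 ± 0.12 (SE, adjusted p = 0.00868, limma), from log2 levels of 7.02 and 7.04 with GFP to 6.09 and 6.39 with TARBP2, and its log2 difference was -0.52 without background correction. ADAM17, an alpha-secretase that also sheds TNF, fell by 0.56 ± 0.07 at its brighter probe (adjusted p = 0.00568, limma), while its dimmer probe did not pass (-0.12). APH1B, the paralog of APH1A, rose by 0.39 ± 0.08 (adjusted p = 0.0162, limma), and lost its call without any 1 of the 4 arrays. ADAM19, a metalloproteinase, rose by 1.54 ± 0.12 (SE, adjusted p = 0.00144, limma). Without GFP replicate 1, GFP replicate 2 or TARBP2 replicate 1, 1 gene of this list rose in place of 2.

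In the authors' deposited table PSENEN and ADAM17 are classed as down-regulated, with log ratios of -0.31 and -0.22.

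Of 21 partners and sorting factors of the secretases, 19 were tested, 8 rose and 3 fell, with a median of 0.28. SORL1, a sorting receptor that holds APP away from the secretases, was at least 2.5-fold higher on the background-corrected scale (adjusted p = 0.00157, limma). It was above background only on the TARBP2 arrays. Without background correction its log2 difference was 1.03, a smaller fold than that bound. TIMP3, an inhibitor of ADAM metalloproteinases, rose by 1.04 ± 0.11 (SE, adjusted p = 0.00325, limma) and TIMP1 by 1.00 ± 0.08 (SE, adjusted p = 0.00149, limma). FURIN, a convertase that matures ADAM10, rose by 0.76 ± 0.09 (SE, adjusted p = 0.00404, limma), and by 0.47 without background correction. Without TARBP2 replicate 2, 5 genes of this list rose in place of 8, and without any 1 array 0 or 1 fell in place of 3.

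Of 22 genes listed as APP adaptors, receptors and related proteins, 14 were tested, 1 rose and 5 fell, with a median of -0.18. BIN1, a membrane-shaping protein of endocytosis, rose by 0.88 ± 0.07 (SE, adjusted p = 0.00171, limma). APBB3 and APBA2, adaptors of the Fe65 and X11 families that bind the APP tail, had log2 differences of -0.88 ± 0.09 and -0.68 ± 0.08 (SE, adjusted p = 0.00296 and 0.00463, limma), that of APBA2 being -0.41 without background correction. SHC1, a signalling adaptor, had -0.74 ± 0.08 (SE, adjusted p = 0.00332, limma), with -0.14 at a dimmer probe that did not pass. Without any 1 array this list had 3 genes lower in place of 5.

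Of 13 proteases and carriers of amyloid beta, 7 were tested, 1 rose and none fell, with a median of 0.23. The gene that rose was THOP1, a peptidase, by 0.27 ± 0.08 (SE, adjusted p = 0.0425, limma), and it lost this call under 8 of 14 other settings, among them each left-out array, after which 0 genes of this list rose. The count went up as well, to 3 genes with no background correction, with a normexp offset of 50 or on the series-matrix intensities, where IDE and PITRM1 passed too. It was 2 with 1 probe per gene, with detection on all 4 arrays or with the neighbours' medians removed. In the last of these settings THOP1 was not among the genes called. The median around THOP1 was 0.24, and with it removed the difference of THOP1 was 0.03 (adjusted p = 0.717, limma). IDE, the insulin-degrading enzyme, differed by 0.30 ± 0.11 (SE, adjusted p = 0.0874, limma). PITRM1, a mitochondrial peptidase, differed by 0.23 (adjusted p = 0.0689, limma) and the lysosomal protease CTSB by -0.24 (adjusted p = 0.111, limma), or -0.14 without TARBP2 replicate 2. The medians around IDE and PITRM1 on chromosome 10 were 0.47 and 0.44, and both were below 0 with these removed.

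Of 35 other substrates of the same secretases, 23 were tested, 8 rose and 8 fell, with a median of -0.02. CX3CL1, a membrane-bound chemokine shed by ADAM10, was at least 4.13-fold higher on the background-corrected scale (adjusted p = 0.000399, limma). It was above background only on the TARBP2 arrays. Without background correction its log2 difference was 1.66, a smaller fold than that bound. CSF1R, a growth factor receptor, rose by 1.71 ± 0.11 (SE, adjusted p = 0.000881, limma) and was detected on 1 of the 2 GFP arrays. Its log2 difference was 0.97 without background correction and 1.02 on the series-matrix intensities. The Notch ligands moved apart, with JAG2 higher by 1.19 ± 0.08 (SE, adjusted p = 0.00109, limma) (0.76 without background correction) and JAG1 lower, at a log2 difference of -1.25 ± 0.10 (SE, adjusted p = 0.00171, limma). Without GFP replicate 1, GFP replicate 2 or TARBP2 replicate 1, 5 substrates rose in place of 8. Without GFP replicate 1, 5 fell in place of 8, and without either TARBP2 replicate 4 fell.

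**Figure D4:**
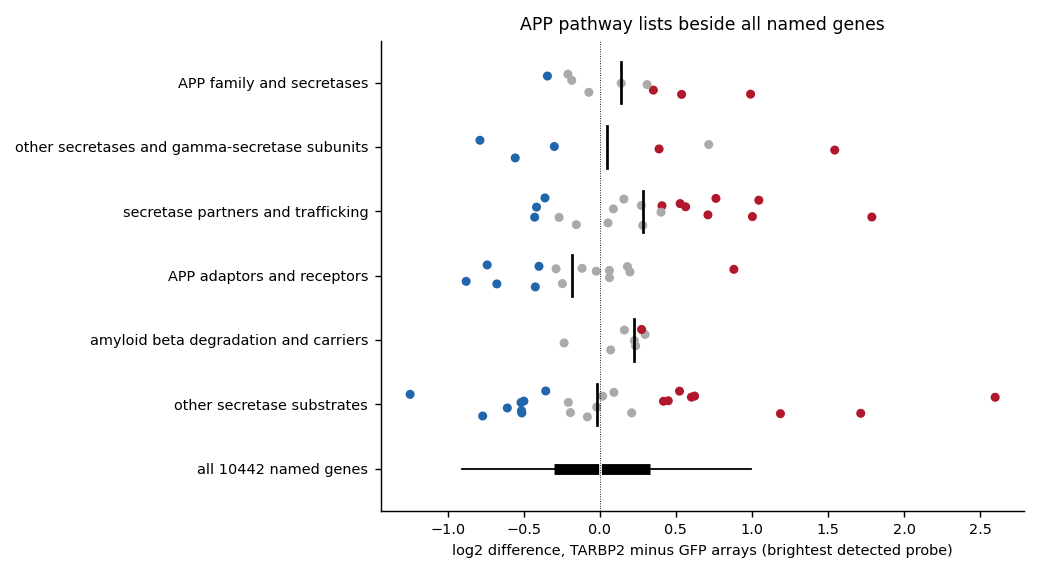
Log2 difference, TARBP2 minus GFP arrays (horizontal axis), of each tested gene by its brightest detected probe, in the 9-gene set and 5 pathway lists, with red for genes that rose, blue for genes that fell, grey for others and a black line at each list's median. The bottom row shows the 25th to 75th percentile (thick) and the 5th to 95th percentile (thin) of all 10442 named genes, and every list spreads to both sides of 0.

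Likeness to APP was sought among named genes by their brightest detected probe, with placeholder symbols such as LOC or KIAA left out. Among these, the 5 genes whose values over the 4 arrays lay nearest those of the brightest APP probe, by Euclidean distance after centring each gene, were SHROOM2 (distance 0.017), MAP1LC3A (0.024), SLC39A10 (0.027), MPP2 (0.034) and FOS (0.036). Apart from MPP2, the log2 differences ran from 0.98 to 1.01. MPP2 was not above background on either GFP array, so its distance rests on values at background. Its level is only bounded, at least 1.64-fold higher on the background-corrected scale. Raw MPP2 intensities were 103.9 and 103.8 with TARBP2 and 73.1 and 75.1 with GFP, a smaller ratio than that bound. With 4 arrays in 2 groups, such a likeness says little more than that the differences are of the same size.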

How the data were processed

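Per the file headers, the authors deposited raw bead intensities with a detection p-value for each of 47323 probes, quantile-normalised intensities, and a log ratio of unstated base with a class per accession. The submitters' processing notes name lumi, without a version. The authors' log ratio equalled a difference of group means of a scaled inverse hyperbolic sine of the quantile-normalised intensities, which tied 33114 of 39747 accessions to 1 probe within 1e-09 (13 in a shifted table). A further 1967 were tied to a unique pair of left-over probes within 7e-10 (188 in a shifted table), with under 0.2 pairs expected there from probe density (members at most 0.17). Unversioned accessions were matched to RefSeq GRCh38.p14 symbols.

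Intensities were normexp-corrected using the detection p-values, offset by 16, quantile normalised and taken to log2 (neqc, limma 3.58.1, R 4.3.3). Probes with detection p under 0.05 on at least 2 of 4 arrays were tested with lmFit and eBayes, 2-sided, with 2 residual and 2.81 prior degrees of freedom. An exact permutation test of 2 against 2 arrays cannot go below p = 0.333. The tying of probes to accessions and the limma fit were each run on simulated data, and the outcomes are not given here. Where a group was not above background, the fold is against the lowest detected level or the probe's own. It is a lower bound on the background-corrected scale only, and uncorrected intensities can give a smaller ratio. The number of arrays limits the precision.

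Named genes are the 9 members, TARBP2, the 4 smallest p in each of 5 lists and the 5 genes most like APP. Members and lists were chosen with earlier results of these data known. Alternatives covered normalization, background, filters, probe choice, neighbours, the replicate block and left-out arrays. Each refit was adjusted over the probes it tested. Same-numbered arrays did not deviate together (correlation 0.006).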

Additional observations from a re-analysis of the deposited data

How the results depend on the processing

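With 2 arrays a group, the smaller calls rested on the full set. Leaving out 1 array at a time gave between 4598 and 5780 probes called in place of 8916 (2317 to 3054 higher and 2281 to 2762 lower). It gave 4 to 7 member probes (4 to 6 higher and 0 to 1 lower) in place of 9, and 1 to 2 member genes (1 to 2 higher and 0 lower) in place of 4. Naming through single-probe accessions alone left 6 genes and 8 probes, with 2 genes called (1 higher) and 3 probes (1 higher), because the pair-named probes drop out. Without a detection filter 1 member probe and 0 member genes fell. With the neighbours' medians removed 4 member probes and 2 member genes fell, in a refit over named probes alone. The share of all probes called in that refit is not given here. In it the log2 differences of BACE2 turned to -0.25 and -0.16, of NCSTN to 0.02, of IDE to -0.17 and of PITRM1 to -0.20. Fitted with the replicate block, 8068 probes were called, with 1 member probe and 0 member genes lower, and the brighter PSEN2 probe did not pass (adjusted p = 0.0654, limma). The numbers do not pair the samples, and the cause of these differences was not tested. Of the refitted member values, 182 kept their direction and side of the threshold, 18 no longer passed, 6 passed newly and 3 changed sign. No slide block could be fitted, since no slide is named. Signal over background limits APLP1 and BACE1, whose dimmer probes were not detected.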

Other observations

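Median log2 differences of all named, detected genes differed between chromosomes. The median was 0.37 over 421 genes of chromosome 10, 0.26 over 391 of chromosome 4 and 0.19 over 103 of chromosome 21. It was -0.17 over 470 genes of chromosome 16. On chromosome 1, which holds PSEN2, NCSTN and APH1A, it was 0.02 over 1090 genes, and on chromosome 15, which holds ADAM10 and APH1B, it was -0.07 over 313.

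Of the 6 tested markers set for this line, by their brightest detected probe, 2 fell and 4 did not pass. That is 33.3% called, against 48.8% of all named genes. AXL had a log2 difference of -0.52 ± 0.07 and MSN one of -0.45 ± 0.08 (SE, adjusted p = 0.00741 and 0.0117, limma). Some marker genes fixed for other cell types differed between the groups too. FOXA1, which marks luminal cells, was lower by at least 5.79-fold with TARBP2 on the background-corrected scale (adjusted p = 0.00011, limma). Its raw intensities were 63.7 and 66.3 with TARBP2 against 237.6 and 243.1 with GFP, a smaller ratio than that bound. KRT19, an epithelial keratin, had a log2 difference of -1.25 ± 0.09 (SE, adjusted p = 0.00116, limma). The luminal list went both ways, 2 genes higher and 3 lower of 5 tested, with ERBB2 at 0.52 ± 0.08 (SE, adjusted p = 0.00755, limma), GATA3 at least 1.13-fold higher and CDH1 at least 1.14-fold lower. The other ERBB2 probes were not above background on any array. SNAP25, a synaptic protein, was at least 2.73-fold higher on the background-corrected scale at 1 probe (adjusted p = 0.000313, limma). Raw intensities at that probe were 137.9 and 146.4 with TARBP2 and 61.8 and 60.9 with GFP, a smaller ratio than that bound. The other SNAP25 probe was not above background on any array. The neuronal tubulin TUBB3 differed by -0.23 (adjusted p = 0.0696, limma), while SYN1 and RBFOX3, other neuronal genes, were not above background on any array. CD14, a monocyte receptor, rose by 1.96 ± 0.12 (SE, adjusted p = 0.000862, limma), and PTPRC, CD3E and ITGAM were not above background on any array. Whether these differences bear on those of APP was not tested.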
